A study of Mus musculus with 9 samples.

Results

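The genes of respiratory complex I were followed through 14 days of nutrient and oxygen deprivation in 6620c1, a cell line from a mouse pancreatic tumor. They were taken as every row of the expression table whose symbol begins with Nduf, which gave 46 of 24493 rows. Of these, 36 code for nuclear-encoded subunits and 8 for assembly factors named Ndufaf1 to Ndufaf8, while Ndufa4 and Ndufa4l2 carry the family name but are shown apart. Ndufb1, a further subunit, was not analysed here. RNA was sequenced in 3 samples at day 0, 3 at day 2 and 3 at day 14, and the labels list for all 9 of them, day 0 included, DMEM in which glucose stood at 2.5 mM, fetal calf serum at 0.5% and the amino acids at 20% of their usual amount. The oxygen level and the medium before day 0 are not stated, and the column names carry a prefix, WT, with no stated meaning. The study has no undeprived cells of the same age at day 2 or day 14. The effect of the medium and that of time in culture therefore cannot be told apart. The labels do not say whether the 3 samples of a day came from separate cultures, so p-values measure no more than the spread among these samples, possibly a technical one.

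Complex I takes electrons from NADH, passes them along a chain of iron-sulfur clusters to ubiquinone and pumps protons across the inner mitochondrial membrane. Its matrix arm holds the N module, which binds NADH, and the Q module, which reduces ubiquinone, and its membrane arm holds the proton pumps, whose core subunits are encoded in mitochondrial DNA. Accessory subunits surround this core, and assembly factors help to join the modules without staying in the finished enzyme. In cells short of oxygen, respiration and the expression of respiratory genes are known to be held down, and NDUFA4L2 is a known target of the hypoxia-inducible factor HIF-1.

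The values are TPM, a per-length abundance that adds up to one fixed total in every library, so depth is unknown. All 46 rows passed the filter on low values, of at least 1 TPM in at least 3 samples, and the 44 rows without Ndufa4 and Ndufa4l2 lay between 2.90 and 669 TPM in every library. The row with the microRNA symbol Mir6236 alone took 10.1% of all TPM on day 0, 16.8% on day 2 and 12.2% on day 14 on average, and up to 22.5% in 1 library of day 2. Which RNA its reads came from was not tested. Summed over 6 epithelial markers, TPM came to 11106 ± 328 at day 0, 6514 ± 1058 at day 2 and 7455 ± 950 at day 14 (n = 3 each, SD), none of them at 0. The 4 keratins make up nearly all of that sum. Cdh1 averaged 240 ± 13.1 TPM at day 0, 224 ± 10.1 TPM at day 2 and 399 ± 34.6 TPM at day 14 (n = 3, SD). Epcam averaged 2.23 ± 0.638, 0.686 ± 0.264 and 14.1 ± 4.91 TPM on these days (n = 3, SD), and both genes were called higher at day 14 against day 0. Fibroblast markers summed to between 0.161 and 3.12 TPM in any library, endothelial ones to between 0 and 1.13, acinar ones to between 1.08 and 5.75 and leukocyte ones to between 17.7 and 35.7. Within the leukocyte list Mrc1 fell by 1.31 on the log2 scale at day 14 against day 0 (adjusted p = 0.000654), while Cd68 was higher by 1.18 (adjusted p = 0.00087) and Csf1r by 1.99 (adjusted p = 0.000194), to means of 6.32 and 3.97 TPM. Under 1 TPM in every library were 5 of 6 fibroblast, 4 of 4 endothelial, 2 of 4 acinar and 3 of 6 leukocyte markers. The part of these markers in the results below was not tested. In RNA from whole cultures, fewer cells of a type and less RNA per cell cannot be told apart.

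Most complex I transcripts were lower at day 2, and on the TPM scale part of the fall was gone at day 14. This return was mostly lost when the shift of the whole table was scaled out. The 36 subunits together had 7061 ± 416 TPM at day 0, 4999 ± 150 TPM at day 2 and 6107 ± 411 TPM at day 14 (n = 3 each, SD). The day 2 sums, from 4834 to 5128 TPM, lay below every sum of the other days, while the day 14 sums, from 5710 to 6530 TPM, lay below those of day 0, from 6610 to 7429 TPM. The 8 assembly factors together had 240 ± 6.89 TPM at day 0, 120 ± 11.0 TPM at day 2 and 157 ± 13.9 TPM at day 14 (n = 3 each, SD), again with no overlap between days. Day 2 thus stood at 70.8% of day 0 for the subunits and at 50.1% for the assembly factors. Such sums are led by their most abundant rows, and Ndufaf8 alone averaged 112 TPM at day 0. The median log2 change at day 2 against day 0 was -0.61 for the subunits and -0.98 for the assembly factors. The difference between these groups was not tested.

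At day 2 against day 0, 35 of the 46 rows were lower and 3 were higher past an adjusted p of 0.05 (limma on log2(TPM + 1), Benjamini-Hochberg over 12693 rows tested), where 31.9% of all rows tested were lower and 27.1% higher. Without Ndufa4 and Ndufa4l2 these were 34 lower and 2 higher of 44, with a median log2 change of -0.65, beside -0.02 over all rows tested. At day 14 against day 0, 24 of the 46 rows were lower, beside 18.8% of all rows tested, and 3 were higher, beside 36.2%. The median of the 44 rows was -0.40, while that of all rows tested was 0.22. Both comparisons share the day 0 samples. Under quantile normalization the 44 rows gave 21 lower and 7 higher at day 2 against day 0, with a median of -0.32, and 16 lower and 4 higher at day 14 against day 0, with a median of -0.20. Of 12693 rows tested, that scaling called 3483 lower and 3726 higher at day 2, and 3370 lower and 2884 higher at day 14. Median-of-ratios scaling, which sets the typical gene near 0 (-0.05 over all rows), gave 31 lower and 2 higher at day 14 against day 0, with a median of -0.69. Under that scaling 4024 of 12693 rows tested were lower and 3115 higher. Quantile normalization made the day 2 change smaller in Ndufv1 (-0.49), Ndufs1 (-0.50), Ndufs8 (-0.43), Ndufa3 (-0.65) and Ndufa10 (-0.26). Median-of-ratios scaling made the day 14 change against day 0 larger in Ndufv1 (-0.71), Ndufs1 (-0.78), Ndufs8 (-0.83), Ndufa9 (-0.83) and Ndufb3 (-0.84). Each of these calls was kept, but of the 35 rows called lower at day 2 only 22 stayed so under quantile normalization. There the signs of Ndufs7 and Ndufa9 turned.

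**Figure D1:**
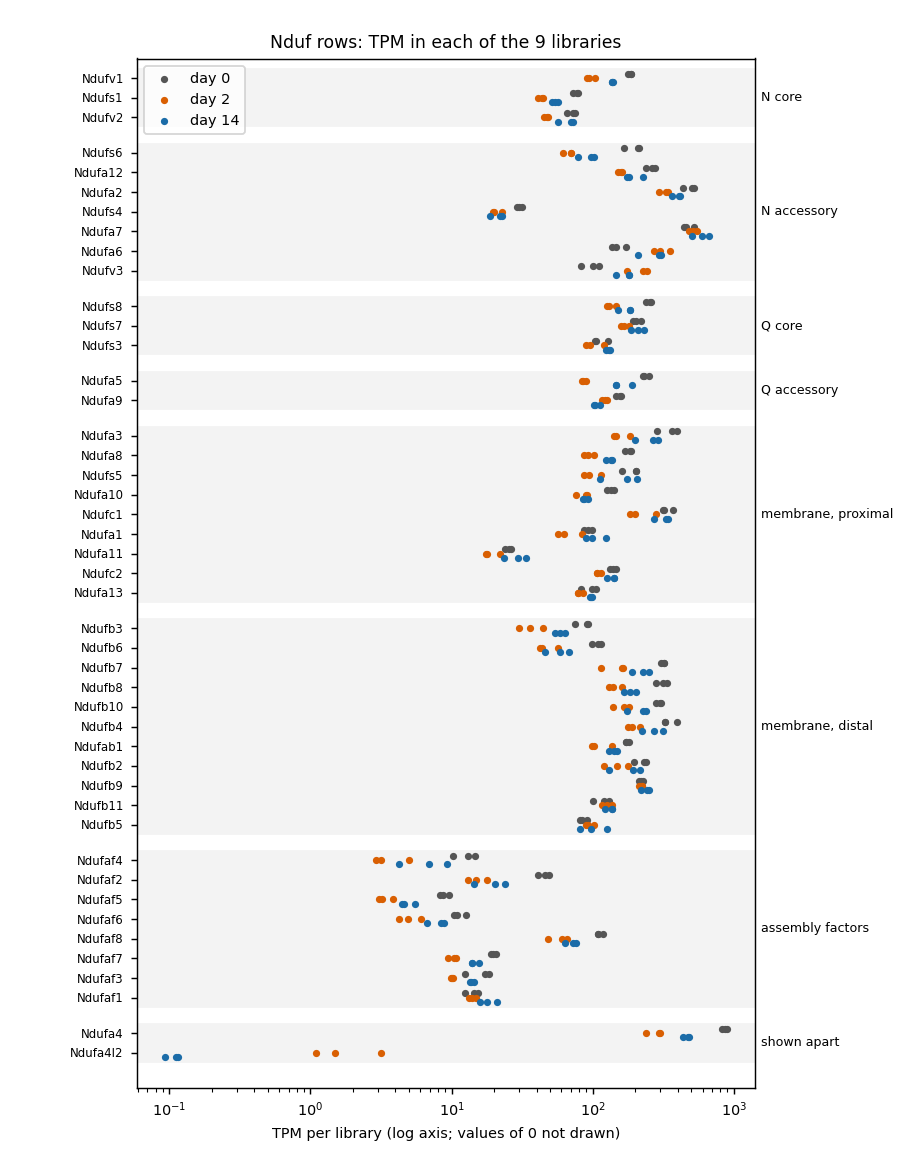
TPM of the Nduf rows reported by name in each of the 9 libraries on a log axis, grouped by module and coloured by day, with values of 0 not drawn. The day 2 points lie to the left of the day 0 points in most rows, Ndufa6 and Ndufv3 run the other way, and Ndufa4l2 is drawn only at day 2, from 1.10 to 3.16 TPM, and at day 14, from 0.0928 to 0.115 TPM.

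At day 14 against day 2, 20 of the 46 rows were higher, beside 27.4% of all rows tested, and 1 was lower, beside 3.79%. The lower row was Ndufa4l2, which entered the test through its day 2 values alone, so that its call was fixed by the filter and supports nothing. This rise was close to the shift of the whole table: the median was 0.35 for the 44 rows and 0.25 for all rows tested. With the typical gene set near 0 by median-of-ratios scaling, the 44 rows had a median of 0.07, with 1 row higher and 2 lower, and under quantile normalization a median of 0.07, with 2 rows higher and 2 lower. Of 12693 rows tested, 1585 were higher and 1487 lower under median-of-ratios scaling, with a median of -0.0089. Under quantile normalization 1477 were higher and 1902 lower, with a median of -0.057. Ndufa4 and Ndufa5 were higher under both scalings, Ndufv1 under quantile normalization alone of these, and Ndufa9 and Ndufv3 were lower under both. The count of 20 also fell to 9 without replicate 3 of day 2, to 8 without replicate 2 of day 14 and to 13 without replicate 3 of day 14.

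**Figure D2:**
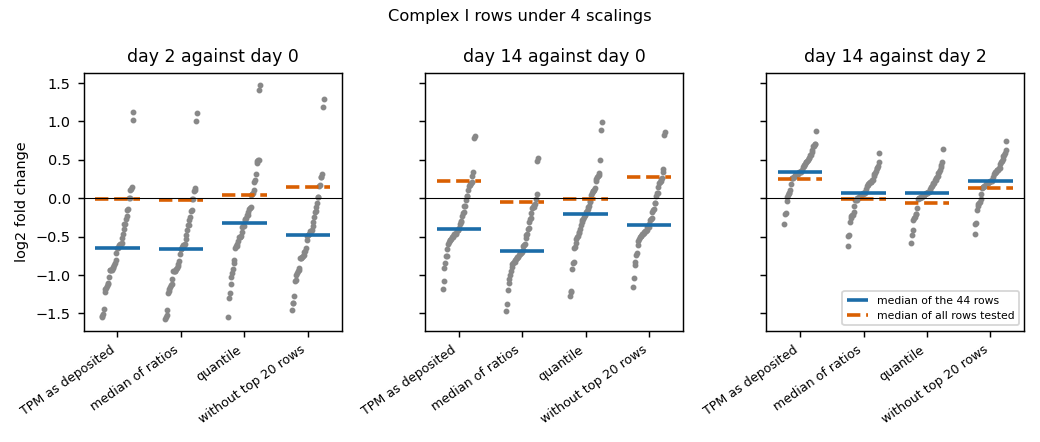
Log2 fold changes of the 44 rows (grey points, sorted) for the 3 comparisons under 4 scalings, with the median of these rows (solid blue line) and of all rows tested (dashed orange line). In both comparisons with day 0 the blue line lies below the orange one under every scaling drawn, and at day 14 against day 2 it lies 0.07 above 0 under median-of-ratios scaling and under quantile normalization.

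The rows were grouped by their calls in the 3 comparisons on the TPM as deposited. Lower at both later days and higher at day 14 than at day 2 were 13 rows. Among them were Ndufv1, Ndufs1, Ndufs6, Ndufs8, Ndufa5 and Ndufa4. A further 11 rows were lower at both later days with no call between them, among them Ndufa9, Ndufa10, Ndufs4, Ndufb6 and Ndufaf2. In 7 rows, Ndufa1, Ndufa3, Ndufa11, Ndufc1, Ndufc2, Ndufs5 and Ndufv2, transcripts were lower at day 2 and higher again at day 14, with no call at day 14 against day 0. All 7 lost the call at day 14 against day 2 under median-of-ratios scaling and under quantile normalization. Ndufab1, Ndufaf3, Ndufb2 and Ndufs7 were called lower at day 2 against day 0 and in no other comparison. Under median-of-ratios scaling all of these, and Ndufa3, Ndufc2 and Ndufv2, were also called lower at day 14 against day 0. Ndufa7, Ndufa13, Ndufb5, Ndufb9, Ndufb11 and Ndufs3 were among the rows that no comparison called.

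The N module core is made of Ndufv1, which binds NADH and the flavin, and of Ndufv2 and Ndufs1, which carry iron-sulfur clusters. Ndufv1 had 186, 187 and 178 TPM on day 0, 103, 94.1 and 91.0 TPM on day 2 and 140, 137 and 137 TPM on day 14. Each day formed a group of its own with no overlap. The log2 change was -0.93 (SE 0.083, adjusted p = 1.85e-05) at day 2 and -0.41 (SE 0.083, adjusted p = 0.00278) at day 14 against day 0, the second not called under quantile normalization (-0.22, adjusted p = 0.0546). Ndufs1 averaged 76.3 ± 3.75 TPM at day 0, 43.3 ± 1.81 TPM at day 2 and 54.1 ± 2.86 TPM at day 14 (n = 3, SD), a log2 change of -0.80 (adjusted p = 7.33e-05) and -0.49 (adjusted p = 0.00179) against day 0. Ndufv2 stood at 71.0 ± 4.64 TPM at day 0, 46.8 ± 1.33 TPM at day 2 and 66.6 ± 8.26 TPM at day 14 (n = 3, SD). It fell by 0.59 on the log2 scale at day 2 (adjusted p = 0.00158, and 0.0601 under quantile normalization), and its values at day 14 and day 0 overlapped.

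Accessory subunits of the N module held both the steepest fall and, on the TPM as deposited, the 2 called rises among the subunits. Of 7 members, 4 were lower and 2 higher at day 2 against day 0, and the same counts were found at day 14 against day 0. The share called higher, 28.6%, was near the 27.1% of all rows tested at day 2 and under the 36.2% at day 14. Ndufs6, a small zinc-binding subunit added late in assembly, had 211, 211 and 166 TPM on day 0, 69.7, 61.7 and 69.8 TPM on day 2 and 78.2, 102 and 97.1 TPM on day 14. Every later value lay below every day 0 value. The log2 change was -1.53 (SE 0.14, adjusted p = 1.89e-05) at day 2 and -1.08 (SE 0.14, adjusted p = 0.000253) at day 14 against day 0.

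Ndufa6 and Ndufv3 went the opposite way. Ndufa6, an LYR-motif protein that binds the acyl carrier protein Ndufab1, had 145, 171 and 136 TPM on day 0, 352, 298 and 274 TPM on day 2 and 306, 292 and 208 TPM on day 14. All 6 later values exceeded the highest day 0 value. It rose by 1.02 (SE 0.17, adjusted p = 0.000631) at day 2 and by 0.82 (SE 0.17, adjusted p = 0.00289) at day 14 on the log2 scale, the second being 0.52 under median-of-ratios scaling (adjusted p = 0.0249). Ndufv3, the small flavoprotein subunit that exists in a long and a short splice form, summed here, had 111, 101 and 82.6 TPM on day 0, 244, 175 and 227 TPM on day 2 and 182, 181 and 146 TPM on day 14. Again no later value reached down to day 0. The log2 change was 1.12 (SE 0.16, adjusted p = 0.000324) at day 2 and 0.78 (SE 0.16, adjusted p = 0.00309) at day 14 against day 0, the second being 0.49 under median-of-ratios scaling (adjusted p = 0.0499). By contrast Ndufab1, the partner of Ndufa6, averaged 175 ± 5.0 TPM at day 0, 112 ± 21.2 TPM at day 2 and 141 ± 10.0 TPM at day 14 (n = 3, SD). Ndufs4, a subunit whose loss in mice models Leigh syndrome, was lower by 0.52 at day 2 and by 0.50 at day 14 on the log2 scale (adjusted p = 0.00361 and 0.00514). Ndufa7 was the most abundant subunit at both later days, with 515 ± 34.8 TPM at day 2 and 588 ± 83.1 at day 14, against 477 ± 41.8 at day 0 (n = 3, SD).

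**Figure D3:**
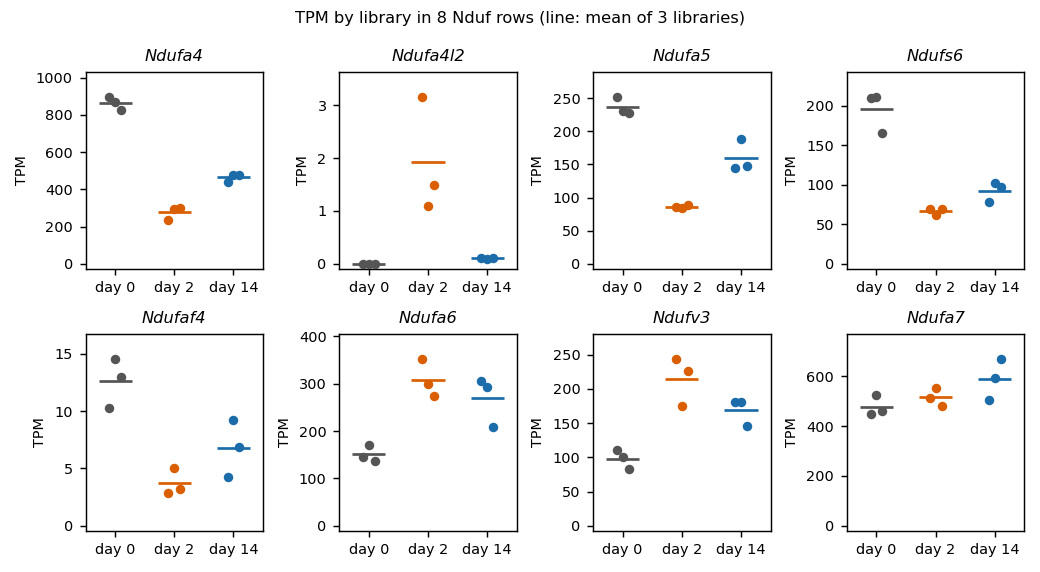
TPM in each library (points) with the mean of 3 libraries (line) at day 0, day 2 and day 14 for 8 Nduf rows, each on its own axis from 0. Ndufa4, Ndufa5, Ndufs6 and Ndufaf4 are lowest at day 2, Ndufa6 and Ndufv3 are lowest at day 0, Ndufa7 overlaps between days and Ndufa4l2 is above 1 TPM at day 2 alone.

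In the Q module core, Ndufs7 lies at the ubiquinone site, Ndufs7 and Ndufs8 carry iron-sulfur clusters, and Ndufs3 is a further subunit. These did not move together. Ndufs8 averaged 250 ± 9.47 TPM at day 0, 133 ± 10.3 TPM at day 2 and 173 ± 19.8 TPM at day 14 (n = 3, SD), a log2 change of -0.90 (adjusted p = 0.000103) at day 2 and -0.54 (adjusted p = 0.00274) at day 14 against day 0. Ndufs3 passed no test, with 113 ± 13.5 TPM at day 0, 102 ± 16.4 TPM at day 2 and 129 ± 3.67 TPM at day 14 (n = 3, SD). Ndufs7 was called lower at day 2 by a narrow margin (log2 change -0.28, adjusted p = 0.045), and the call was lost under quantile normalization (0.21, adjusted p = 0.131), without the 20 most abundant rows (-0.11, adjusted p = 0.355) and without the rows of microRNA, small nucleolar and ribosomal RNA (-0.17, adjusted p = 0.171). The call of Ndufs7 also ended in 4 other fits of all 9 libraries and without replicate 1, 2 or 3 of day 0, replicate 2 or 3 of day 2 or replicate 2 of day 14.

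Beside the Q core, Ndufa5 fell steeply and Ndufa9, which binds NADPH, mildly. Ndufa5 had 252, 230 and 227 TPM on day 0, 86.0, 84.2 and 89.3 TPM on day 2 and 145, 189 and 147 TPM on day 14. The 3 days did not overlap. Its log2 change was -1.44 (SE 0.11, adjusted p = 9.46e-06) at day 2 and -0.57 (SE 0.11, adjusted p = 0.00286) at day 14 against day 0, the second -0.86 under median-of-ratios scaling and not called under quantile normalization (-0.34, adjusted p = 0.0611). Ndufa9 averaged 154 ± 7.28 TPM at day 0, 121 ± 5.58 TPM at day 2 and 106 ± 5.34 TPM at day 14 (n = 3, SD), so that the day 14 mean was the lowest. The log2 change was -0.34 (adjusted p = 0.00797) at day 2, which turned to 0.07 under quantile normalization and lost its call without the 20 most abundant rows (-0.17, adjusted p = 0.0815), and -0.53 (adjusted p = 0.000901) at day 14 against day 0.

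The stretches of DNA just before the start sites of these genes are shown for members that fell steeply, Ndufs6 and Ndufa5, and for the pair of subunits that rose, Ndufa6 and Ndufv3. Each is the 250 bases before the RefSeq gene start in GRCm38.p6, read 5′ to 3′ on the gene's strand: chr13:73328483-73328732 (minus) for Ndufs6, chr6:24527691-24527940 (minus) for Ndufa5, chr15:82354292-82354541 (minus) for Ndufa6 and chr17:31519865-31520114 (plus) for Ndufv3. Capitals mark matches, on either strand, to letters drawn from the sites of 4 factors: GCGCANGCG for NRF1, CCGGAAG for ETS proteins, AAGATGGC for YY1 and ACGTG for the hypoxia response element.
Ndufs6: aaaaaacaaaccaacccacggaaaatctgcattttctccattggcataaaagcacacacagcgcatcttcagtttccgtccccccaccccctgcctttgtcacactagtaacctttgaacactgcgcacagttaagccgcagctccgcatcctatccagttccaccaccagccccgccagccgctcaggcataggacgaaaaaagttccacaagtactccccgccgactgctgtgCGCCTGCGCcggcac
Ndufa5: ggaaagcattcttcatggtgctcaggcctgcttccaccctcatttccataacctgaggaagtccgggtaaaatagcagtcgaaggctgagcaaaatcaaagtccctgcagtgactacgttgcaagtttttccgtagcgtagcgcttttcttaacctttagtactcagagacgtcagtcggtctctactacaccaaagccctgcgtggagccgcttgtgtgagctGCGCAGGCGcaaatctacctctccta
Ndufa6: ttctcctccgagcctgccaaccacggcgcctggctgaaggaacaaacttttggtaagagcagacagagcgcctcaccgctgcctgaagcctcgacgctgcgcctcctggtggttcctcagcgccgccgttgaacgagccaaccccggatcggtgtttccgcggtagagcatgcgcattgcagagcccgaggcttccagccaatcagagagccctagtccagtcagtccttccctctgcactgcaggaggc
Ndufv3: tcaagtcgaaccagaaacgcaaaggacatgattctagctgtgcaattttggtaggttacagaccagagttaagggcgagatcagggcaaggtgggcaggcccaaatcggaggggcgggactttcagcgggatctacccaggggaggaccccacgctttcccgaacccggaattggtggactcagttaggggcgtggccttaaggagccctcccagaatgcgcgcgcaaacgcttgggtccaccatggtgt
Ndufs6 and Ndufa5 each hold 1 NRF1 match. Ndufa5 has a further RefSeq start, and its window, chr6:24527527-24527776, overlaps the one shown and holds the same match. The windows of Ndufa6 and Ndufv3 hold none of the 4 letter patterns. Of other members that fell steeply at day 2, Ndufa4, Ndufaf2 and Ndufb3 hold none either, while Ndufaf4 holds NRF1 matches. A window was found for 40 of the 46 rows, and the NRF1 letters lie in 7 of them (17.5%), those of Ndufa5, Ndufa8, Ndufa11, Ndufaf4, Ndufb4, Ndufs5 and Ndufs6. The same letters lie in a window of 12.9% of the tested genes that had one. The ETS letters lie in a window of 12.5% of these complex I genes and of 16.2% of the tested genes. The shares of genes were 12.5% and 25.25% for the hypoxia letters, and 0 of 40 and 2.54% for the YY1 letters. A match describes the letters alone.

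In the membrane arm, 8 of 9 subunits next to the matrix arm and 8 of 11 subunits of the distal part were lower at day 2 against day 0, with median log2 changes of -0.62 and -0.85, and under quantile normalization 3 of 9 and 5 of 11 were lower. Of all rows tested, 31.9% were lower at day 2 as deposited and 3483 of 12693 under quantile normalization. At day 14 against day 0, 2 of 9 proximal and 6 of 11 distal subunits were lower, with medians of -0.10 and -0.38. The proximal share, 22.2%, was close to the 18.8% of all rows tested, and the distal share was 54.5%. Under median-of-ratios scaling 4 of 9 and 8 of 11 were lower, with Ndufa3, Ndufc2, Ndufab1 and Ndufb2 added, beside 4024 of 12693 rows tested. The counts of the 2 days were not tested against each other. No membrane arm subunit was called higher against day 0 on the TPM as deposited, but quantile normalization called Ndufb5, Ndufb9 and Ndufb11 higher at day 2 and Ndufb9 at day 14, and sample weights called Ndufa1 and Ndufb5 higher at day 14. Ndufb3, a small distal subunit, had 92.9, 91.8 and 75.2 TPM on day 0, 44.1, 30.2 and 35.9 TPM on day 2 and 54.1, 58.8 and 63.5 TPM on day 14, with no overlap between days. The log2 change was -1.23 (SE 0.15, adjusted p = 0.000123) at day 2 and -0.55 (SE 0.15, adjusted p = 0.0126) at day 14 against day 0. Ndufb6 averaged 108 ± 7.60 TPM at day 0, 47.8 ± 7.85 TPM at day 2 and 57.7 ± 11.2 TPM at day 14 (n = 3, SD), the largest fall of the distal subunits at day 14 (-0.90, adjusted p = 0.00155). Its exons overlap those of Smim27 on the other strand by 257 bases, and the strand setting of the quantification is not stated.

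Of the proximal subunits, Ndufa3 fell most at day 2 against day 0, with 348 ± 57.0 TPM at day 0, 156 ± 23.0 TPM at day 2 and 252 ± 48.2 TPM at day 14 (n = 3, SD; log2 change -1.14, adjusted p = 0.000533). Ndufa10, a subunit related to nucleoside kinases, stayed low: 134 ± 8.02 TPM at day 0, 85.3 ± 7.96 TPM at day 2 and 87.9 ± 3.65 TPM at day 14 (n = 3, SD), with log2 changes of -0.65 (adjusted p = 0.000474) and -0.60 (adjusted p = 0.00101) against day 0. Ndufa11, the least abundant subunit at day 0 and day 2, had 25.3 ± 1.17 TPM at day 0, 19.1 ± 2.58 TPM at day 2 and 28.9 ± 4.93 TPM at day 14 (n = 3, SD). Its day 2 call (-0.40, adjusted p = 0.0409) was lost under quantile normalization (-0.26, adjusted p = 0.14), without the 20 most abundant rows (-0.24, adjusted p = 0.144), without the small RNA rows (-0.29, adjusted p = 0.0832) and with no filter (adjusted p = 0.0606). The same call ended without replicate 1, 2 or 3 of day 0, replicate 1 or 3 of day 2 or replicate 2 of day 14. Ndufb5, Ndufb9 and Ndufb11 were the distal subunits with no call: Ndufb9 averaged 220 ± 5.91 TPM at day 0, 220 ± 5.48 TPM at day 2 and 237 ± 16.9 TPM at day 14 (n = 3, SD). Ndufb5 had the largest positive log2 change of the distal subunits at day 2 against day 0 (0.15, SE 0.15, adjusted p = 0.421), and 530 bases of its exons overlap Mrpl47 on the other strand, a row at up to 44.8 TPM.

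Ndufa8, Ndufb7, Ndufb10 and Ndufs5 have the pair of CX9C motifs by which proteins are brought into the intermembrane space and oxidised by the CHCHD4 relay. All of them were lower at day 2 against day 0, beside 31.9% of all rows tested. The log2 change was -0.94 for Ndufa8 (adjusted p = 3.8e-05) and -1.11 for Ndufb7 (adjusted p = 0.000226). It was -0.87 for Ndufb10 (adjusted p = 0.000573) and -0.94 for Ndufs5 (adjusted p = 0.0044). Ndufb10 and Ndufs5 lost the call at day 2 against day 0 under quantile normalization, where the log2 change of Ndufs5 was -0.51 (adjusted p = 0.0673). Ndufs5 had 202, 203 and 162 TPM on day 0, 86.8, 114 and 94.0 TPM on day 2 and 113, 176 and 207 TPM on day 14, a day whose 3 values spread over both of the others. A processed copy, BC002163, matches Ndufs5 over 319 bases and stood at up to 8.52 TPM. Such partners are not particular to Ndufs5. Of the 46 rows, 20 had a transcript of another gene alike at 90% or more over at least 150 bases. For 9 rows such a partner was itself among the rows quantified. Chchd4 itself had 64.6, 72.9 and 73.1 TPM on day 0, 13.7, 23.0 and 12.4 TPM on day 2 and 38.7, 48.4 and 43.3 TPM on day 14, with no overlap. Its log2 change was -2.08 (SE 0.20, adjusted p = 3.21e-05) at day 2 and -0.68 (SE 0.20, adjusted p = 0.0187) at day 14 against day 0. Aifm1, which binds CHCHD4 and was named after its values were seen, averaged 52.5 ± 2.24 TPM at day 0, 16.9 ± 1.05 TPM at day 2 and 32.0 ± 2.61 TPM at day 14 (n = 3, SD; log2 changes -1.58 and -0.70 against day 0, adjusted p = 2.89e-06 and 0.000516).

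Of the 8 assembly factors named Ndufaf, 7 were lower at day 2 against day 0 and 6 were lower at day 14 against day 0. The median log2 changes were -0.98 and -0.56, and 31.9% and 18.8% of all rows tested were lower. Ndufaf4, which works with Ndufaf3 on the Q module, had 10.2, 14.6 and 13.0 TPM on day 0, 2.90, 5.02 and 3.17 TPM on day 2 and 4.21, 9.26 and 6.91 TPM on day 14. Both later days lay below day 0, and they overlapped each other. The log2 change was -1.55 (SE 0.26, adjusted p = 0.000894) at day 2, or -1.02 with a pseudocount of 5, and -0.84 (SE 0.26, adjusted p = 0.023) at day 14 against day 0. The second call was lost without replicate 2 of day 0 (-0.74, adjusted p = 0.0794), replicate 3 of day 0 (-0.82, adjusted p = 0.0629) or replicate 1 of day 14 (-0.58, adjusted p = 0.0675). Ndufaf2, a paralog of the subunit Ndufa12 that takes its place during assembly, had 40.7, 48.7 and 45.9 TPM on day 0, 17.7, 13.1 and 14.8 TPM on day 2 and 14.4, 20.5 and 23.9 TPM on day 14. It stayed low at day 14, with log2 changes of -1.51 (SE 0.18, adjusted p = 0.000118) at day 2 and -1.19 (SE 0.18, adjusted p = 0.000716) at day 14 against day 0. Ndufaf8, the most abundant of these factors, averaged 112 ± 4.80 TPM at day 0, 58.3 ± 8.98 TPM at day 2 and 70.8 ± 6.81 TPM at day 14 (n = 3, SD).

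Ndufaf1, which acts early on the membrane arm, was the exception among the assembly factors. It had 12.5, 15.3 and 14.5 TPM on day 0, 14.8, 13.4 and 14.0 TPM on day 2 and 15.8, 17.8 and 20.9 TPM on day 14. The day 14 values lay above both other days. The log2 change of 0.34 (SE 0.13) at day 14 against day 0 had an adjusted p of 0.04998. The call was lost under median-of-ratios scaling (0.06, adjusted p = 0.699) and quantile normalization (0.10, adjusted p = 0.564), in 5 other fits of all 9 libraries or of the pair of days, and without any 1 library other than replicate 1 of day 14.

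**Figure D4:**
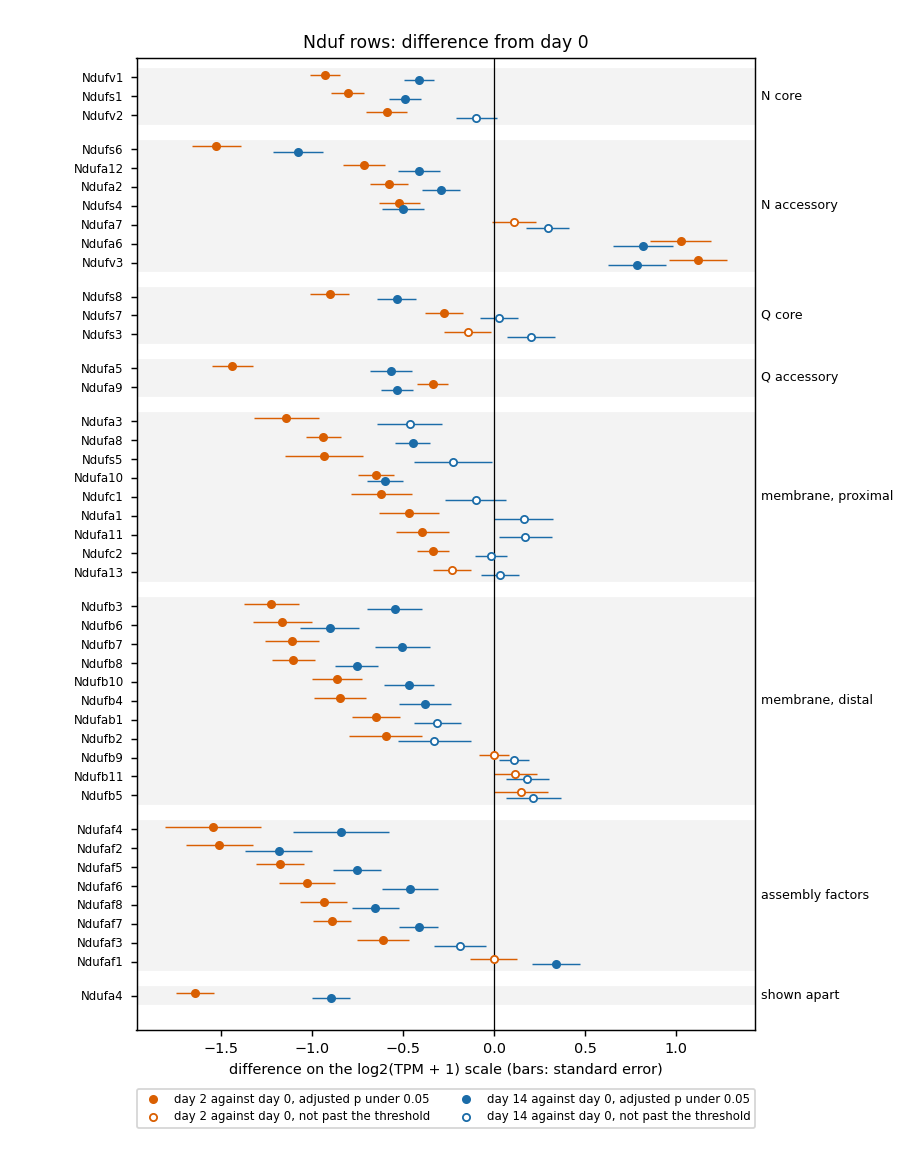
Difference from day 0 on the log2(TPM + 1) scale for the Nduf rows reported by name except Ndufa4l2, grouped by module, with day 2 in orange, day 14 in blue, bars for the standard error and filled points for an adjusted p under 0.05. Day 2 points are filled and below 0 in 35 rows, Ndufa6 and Ndufv3 are filled and above 0 at both days, and most day 14 points lie closer to 0 than the day 2 points.

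Ndufa4 was first described as a complex I subunit and is now placed in cytochrome c oxidase, and Ndufa4l2 is its paralog. Ndufa4 had 896, 871 and 828 TPM on day 0, 237, 294 and 300 TPM on day 2 and 438, 479 and 476 TPM on day 14. It was the most abundant of all Nduf rows at day 0, and its 3 days did not overlap. The log2 change of -1.65 (SE 0.11, adjusted p = 2.73e-06) was the largest fall of the 46 rows at day 2, and -0.90 (SE 0.11, adjusted p = 0.000168) was found at day 14 against day 0. Between the later days, at day 14 against day 2, Ndufa4 was higher by 0.75 (SE 0.11, adjusted p = 0.00103), or by 0.46 under median-of-ratios scaling (adjusted p = 0.0254). Ndufa4l2 was listed at 0 in all 3 libraries of day 0. It was listed at 3.16, 1.10 and 1.49 TPM at day 2 and at 0.115, 0.0928 and 0.112 TPM at day 14. It passed the filter through its day 2 values alone and so had to differ, and no fold against day 0 is given. Its level at day 2 was far under that of Ndufa4 in the same libraries, and its exons overlap Shmt2 on the other strand by 32 bases, a row at up to 177 TPM.

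The levels of the 36 subunits, which stand side by side in the finished complex, differed widely at every day. At day 0 the highest mean, 486 TPM for Ndufa2, was 19.2 times the lowest, 25.3 TPM for Ndufa11. At day 2 the ratio was 27.0, between Ndufa7 and Ndufa11, and at day 14 it was 27.8, between Ndufa7 at 588 TPM and Ndufs4 at 21.1 TPM. Across the 36 subunits the Spearman correlation of the day 2 change with the day 0 level, which enters both, was -0.27, given as a description.

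Of 10 tested assembly factors with other names, 7 were lower and 2 higher at day 2 against day 0, beside 31.9% and 27.1% of all rows tested. At day 14 against day 0, 2 were lower and 2 higher, where the share lower, 20%, was close to the 18.8% of all rows tested. Foxred1 averaged 18.5 ± 1.05 TPM at day 0, 8.14 ± 0.824 TPM at day 2 and 15.4 ± 2.26 TPM at day 14 (n = 3, SD), a log2 change of -1.10 at day 2 (adjusted p = 0.000124). Ecsit, part of the MCIA complex with Ndufaf1, stayed low, with log2 changes of -0.88 and -0.76 against day 0 (adjusted p = 0.000216 and 0.00072). The rises were of Tmem126b, also of the MCIA complex, by 0.62 and 0.88 (adjusted p = 0.0105 and 0.00217), and of Dmac2, by 0.69 and 0.77 (adjusted p = 0.00273 and 0.00193), at day 2 and day 14.

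Genes that supply and regulate the complex were counted from lists written by function. Of 14 tested genes of CHCHD4 import and iron-sulfur cluster assembly, 10 were lower and 0 higher at day 2 against day 0. Their median log2 change was -0.52, and 31.9% of all rows tested were lower and 27.1% higher. At day 14 against day 0, 7 of these genes were lower and 1 higher, beside 18.8% and 36.2% of all rows tested. Glrx5, a glutaredoxin of cluster assembly, fell by 1.52 and 0.96 on the log2 scale (adjusted p = 1.41e-05 and 0.000342), and Isca2 was the gene that rose at day 14 (0.34, adjusted p = 0.0309). Of 13 tested regulators of mitochondrial biogenesis, 5 were lower and 1 higher at day 2, and 2 were lower and 3 higher at day 14, against day 0. These shares lie near or under those of all rows tested, with 38.5% lower beside 31.9% at day 2, and 15.4% lower beside 18.8% and 23.1% higher beside 36.2% at day 14. Nrf1, whose protein binds the letters searched for above, averaged 29.7 ± 2.32 TPM at day 0, 16.5 ± 3.41 TPM at day 2 and 15.6 ± 1.73 TPM at day 14 (n = 3, SD), a log2 change of -0.83 (adjusted p = 0.00183) and -0.89 (adjusted p = 0.0016). Pprc1, a PGC-1-related coactivator, fell by 0.98 and 0.65 (adjusted p = 0.0017 and 0.0159), and Yy1 rose by 0.41 and 0.46 (adjusted p = 0.0298 and 0.0206). Ppargc1b, a coactivator of the same family, was called higher at day 14 (1.44, SE 0.51, adjusted p = 0.038) on values of 14.2, 5.74 and 2.48 TPM, against 1.99, 1.14 and 1.77 TPM at day 0.

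A list on the switch of respiration in low oxygen held genes known to rise when oxygen is short and some of their isoform partners, such as Cox4i1 and Cox7a2. Of 9 tested, 7 were higher and 1 lower at day 2 against day 0, beside 27.1% and 31.9% of all rows tested. At day 14 against day 0, 7 were higher and 0 lower, beside 36.2% and 18.8%. At day 14 against day 2, 5 were lower, beside 3.79% of all rows tested. Bnip3, a mitophagy receptor, had 7.50, 4.70 and 3.76 TPM on day 0, 630, 651 and 530 TPM on day 2 and 326, 300 and 325 TPM on day 14, a log2 change of 6.62 (SE 0.19, adjusted p = 1.88e-07) at day 2 and 5.70 (SE 0.19, adjusted p = 1.22e-06) at day 14. Cox4i1 passed no test (0.05, adjusted p = 0.699 at day 2 against day 0). Cox7a2 was the gene that fell at day 2 (-0.45, adjusted p = 0.0165), while its relative Cox7a2l, which joins complexes III and IV and was named after its values were seen, averaged 153 ± 3.56 TPM at day 0, 465 ± 50.8 TPM at day 2 and 472 ± 51.2 TPM at day 14 (n = 3, SD).

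The other complexes of the chain gave values close to those of complex I, with no test between them. Of 39 nuclear-encoded subunits of complexes II to V, 32 were lower and 1 higher at day 2 against day 0. Their median log2 change was -0.62, and 31.9% of all rows tested were lower and 27.1% higher. At day 14 against day 0, 20 were lower and 1 higher, beside 18.8% and 36.2% of all rows tested. The median of the 39 was -0.33. At day 14 against day 2, 21 were higher and 0 lower, beside 27.4% and 3.79% of all rows tested. On the TPM as deposited, the median was 0.38 for the 39 and 0.25 for all rows tested. Cyc1, the cytochrome c1 of complex III, fell by 1.27 and 0.86 on the log2 scale at day 2 and day 14 (adjusted p = 7.94e-06 and 0.000152), while Atp5g3, a c subunit of ATP synthase, fell by 1.31 and 0.82 (adjusted p = 5.38e-06 and 0.000162). Uqcrh, the hinge protein of complex III, was the gene that rose, by 0.36 (adjusted p = 0.0468) and 0.49 (adjusted p = 0.0137). Sdhb of complex II fell by 1.03 and 0.46 (adjusted p = 5.47e-05 and 0.00644), and Cox6a1 of complex IV by 0.94 and 0.55 (adjusted p = 5.91e-05 and 0.00186). The largest falls of complexes III, IV and V at day 2 were of Uqcr11 (-1.41, adjusted p = 0.000124), Cox7b (-0.96, adjusted p = 4.13e-05) and Atp5k (-1.55, adjusted p = 0.00176).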

How the data were processed

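Total RNA of 9 samples was extracted with a Qiagen kit, made into libraries by Novogene and quantified with Salmon, per the labels. The version of Salmon and the genome build, annotation and strand setting are not given in sources used here. The deposited values are gene TPM, scaled by the authors to one fixed total per library, so depth is unknown and no counting intervals can be given.

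Of 24493 rows, the 12693 that reached 1 TPM in 3 or more samples were tested. From the deposited TPM, log2(TPM + 1) was computed, which understates the change of low genes, and all 9 samples were fitted with a mean per day (limma 3.58.1 in R 4.3.3, eBayes with trend, two-sided, Benjamini-Hochberg over all rows tested). A row was called at an adjusted p under 0.05. The fit was checked on simulated data. Tables and figures were made with Python 3.11.15, pandas 2.3.3 and matplotlib 3.10.9. Promoter windows came from RefSeq on GRCm38.p6, and exon overlaps from GENCODE vM21.

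The members, role lists and tests were chosen with earlier results of these data known. Full statistics were given by rule for Ndufa4, Ndufa4l2, nuclear core subunits and, in each other role list, the members with the largest rise and fall in a comparison, and for rows called against the majority. Of each other list the rule took the called members with the largest rise and fall against day 0. Adjusted p was also given outside the rule, for the members Ndufa8, Ndufb7, Ndufb10 and Ndufs4 among others. The values of 1 member are not reported here, though counts, sums and medians include it. It is not settled whether replicate numbers in the labels pair the samples, and the fit reported did not pair them. Residuals of same-numbered samples correlated between -0.0709 and 0.318. Alternatives were other pseudocounts, filters, scalings and variance models, a replicate block and each library left out.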

Additional observations from a re-analysis of the deposited data

Results flagged for a closer look

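Of the members taken by the rule for full statistics, 11 had a change from day 0 that differed between day 14 and day 2. The test was that of day 14 against day 2 in the fit of all 9 libraries. Of all 46 rows, 20 were higher in it, beside 27.4% of all rows tested. Some of the 11 had been taken by the rule for the size of their change. The log2 difference was positive, with day 14 above day 2, for Ndufa5 (0.87), Ndufa4 (0.75), Ndufs5 (0.71), Ndufa3 (0.68), Ndufb3 (0.68), Ndufa11 (0.57), Ndufv1 (0.52), Ndufv2 (0.49), Ndufs6 (0.45), Ndufs8 (0.37) and Ndufs1 (0.31). With the shift of the whole table taken out by median-of-ratios scaling, calls were left for Ndufa5 (0.59, adjusted p = 0.0135) and Ndufa4 (0.46, adjusted p = 0.0254). Ndufa4l2 is left out, since its filter fixed its call. Dixon's criterion for single libraries that stand apart was not applied, since each day had 3.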

How the results depend on the processing

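Under quantile normalization, day 2 against day 0 gave 8 rows higher, 22 lower and a median of -0.32 for the 44 rows, and the signs of Ndufs3 (0.23), Ndufs7 (0.21), Ndufa9 (0.070), Ndufaf1 (0.054) and Cox7a2 (0.014) turned. Without the 20 most abundant rows the median was -0.48, and Ndufs3 (0.021) and Ndufaf1 (0.16) turned. Without the small RNA rows it was -0.54, with Ndufaf1 at 0.10. For day 14 against day 0 the median was -0.69 under median-of-ratios scaling, with Ndufs3 (-0.092), Ndufs7 (-0.27), Ndufa11 (-0.12) and Ndufb5 (-0.078) turned, and -0.20 under quantile normalization. Sample weights gave 5 rows higher and Ndufs7 at -0.058. For day 14 against day 2, median-of-ratios scaling gave 2 rows higher and 3 lower (median 0.066; Ndufa10 -0.24, Ndufb5 -0.21, Ndufb6 -0.018), quantile normalization 3 and 3 (median 0.073; Ndufa10 -0.24, Ndufb5 -0.21), removal of the 20 most abundant rows 12 and 2 (median 0.23; Ndufa10 -0.077, Ndufb5 -0.054), removal of small RNA rows 2 lower (Ndufa10 -0.023), a mean of at least 5 TPM 0 lower, since Ndufa4l2 was not tested, and a fit of the 2 days alone 10 higher. Values that turned were not called in the fit reported, except those of Ndufs7, Ndufa9 and Cox7a2 at day 2 against day 0. The cause was not tested.

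With a library left out in turn, day 14 against day 2 gave from 8 to 20 rows higher and from 1 to 2 lower. The median of the 44 rows ran from -0.75 to -0.61 at day 2 against day 0 and from -0.43 to -0.28 at day 14 against day 0. Uncalled values crossed 0 for Ndufaf1 (-0.080 to 0.053) and Isca2 (-0.010 to 0.14) at day 2 against day 0, for Ndufs7 (-0.044 to 0.10), Ndufs5 (-0.41 to 0.022) and Ndufv2 (-0.16 to 0.0075) at day 14 against day 0, and for Ndufa10 (-0.032 to 0.092) and Ndufb5 (-0.096 to 0.22) at day 14 against day 2.

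With the replicate number as a block, the 44 rows gave 34 lower and 2 higher at day 2 against day 0, 24 lower and 2 higher at day 14 against day 0 and 21 higher at day 14 against day 2. Ndufaf1 lost its call at day 14 against day 0 (adjusted p = 0.0574), as did Ndufs6 at day 14 against day 2 (adjusted p = 0.0538). Once day means were removed, the best match of 4 of the 9 samples carried their own number. With 3 samples a day, this cannot decide whether the numbers pair the samples.

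TPM are shares of a library, so a change in the largest rows moves all others, and without read counts the precision of low rows such as Ndufaf4 and Ndufa4l2 is unknown. The number of samples, 3 a day, limits the size of change that can pass the test.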

Other observations

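Among the genes that rise when oxygen is short, Pdk1, which holds pyruvate out of mitochondria by inhibiting pyruvate dehydrogenase, averaged 9.90 ± 1.33 TPM at day 0, 129 ± 2.71 TPM at day 2 and 78.7 ± 4.70 TPM at day 14 (n = 3, SD). Lonp1, the matrix protease, averaged 125 ± 7.02 TPM on day 0, 344 ± 4.15 TPM on day 2 and 261 ± 42.0 TPM on day 14 (n = 3, SD). Higd1a, a small inner membrane protein, averaged 31.2 ± 0.600 TPM at day 0, 96.3 ± 3.95 TPM at day 2 and 61.2 ± 9.43 TPM at day 14 (n = 3, SD). In each of these the highest values were at day 2 and the lowest at day 0, with no overlap between days. They were named after their values were seen.

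Exons of a gene on the other strand overlap those of several members beside Ndufb5, Ndufb6 and Ndufa4l2. The overlap is 375 bases for Ndufa13 with Tssk6 (at up to 7.19 TPM), 117 bases for Ndufb11 with Rbm10 (up to 38.0 TPM), 48 bases for Ndufaf3 with Impdh2 (up to 381 TPM), 30 bases for Ndufs6 with Mrpl36 (up to 62.5 TPM) and 9 bases for Ndufs1 with Eef1b2 (up to 696 TPM). No such overlap was found for Ndufa6, Ndufv3, Ndufa5 or Ndufa4.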
